A study of Homo sapiens with 36 samples.

Results

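HEK293T cells expressing a TXNL1 that arsenite sends for degradation were compared, under arsenite, with cells expressing a TXNL1 that arsenite leaves stable. The comparison takes 6 of the 36 libraries of the study, 3 from the WT line and 3 from the D162R R234D line (here DR-RD), chosen by their labels, that is by line and treatment and by no measured value. HEK293T is a human embryonic kidney line, and every group in the study was built on TXNL1 knockout (KO) cells, which per the study's methods were sorted as single cells and expanded as isogenic clones. The WT and DR-RD lines are such KO cells with TXNL1 put back, in the second case with both changes D162R and R234D. The vector line is KO cells without TXNL1 put back, and the SxxS line holds a TXNL1 with a changed thioredoxin active site. Both are set beside the comparison in places. The arsenite groups received 100 µM for 6 h, and the labels give DMSO for the untreated groups. Groups given hydrogen peroxide, also for 6 h, are outside the comparison but enter the fit of all libraries. Per the study's methods cells were treated in triplicate in six-well plates, and nothing says whether the 3 replicates were independent cultures beyond that. The p-values set a difference against the spread between replicate libraries, which may be technical and is estimated over all libraries in a fit. Each TXNL1 variant is a single line here, so its effect and any other difference between the lines cannot be told apart.

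TXNL1 is a thioredoxin-like protein that sits on the regulatory particle of the proteasome. Arsenite is a thiol-reactive oxidant, and the D162R R234D protein does not make the contacts with the proteasome that the arsenite-induced degradation of TXNL1 needs. Arsenite also sets off heat shock, NRF2 and integrated stress responses. In the last of these, phosphorylation of the translation factor eIF2α favours translation of the transcription factor ATF4, whose targets make and import amino acids. Stressed cells commonly reduce the making of new ribosomes.

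TXNL1 mRNA itself was not called between the lines under arsenite with all libraries, nor without WT replicate 1. Its level (gene on chromosome 18, 56597209 to 56651600, minus strand, GRCh38) was 107.0, 97.2 and 97.2 CPM in WT replicates 1 to 3 and 108.2, 101.6 and 106.4 CPM in DR-RD replicates 1 to 3, where CPM is the gene's count scaled to a common library total with TMM factors. The groups overlapped through WT replicate 1, and WT replicates 2 and 3 lay below every DR-RD value. The log2 fold change of WT against DR-RD was −0.07 ± 0.06 (SE; Benjamini-Hochberg adjusted p = 0.466 in edgeR's quasi-likelihood test), and −0.12 ± 0.06 (adjusted p = 0.559) without WT replicate 1. A fit of these groups alone minus that library called it lower in WT, at −0.12 (adjusted p = 0.0353). Untreated cells had 54.4 ± 3.15 CPM (SD, n = 3) in the WT line and 62.9 ± 3.50 in the DR-RD line, a log2 fold change of −0.20 that passed the test without both outlying libraries described below (adjusted p = 0.0121). Since both lines make the mRNA and differ in the fate of the protein, this level is no check of which line is which, and reads of the disrupted gene and of the introduced copy were not separated. TXNL1 protein was not measured in these files, and exons of TXNL1 overlap those of an antisense gene. Among the markers of HEK293T cells, VIM lay between 458 and 526 CPM and LIN28B between 48.2 and 123 over the 6 libraries on unscaled totals, while NEFM, NEFL and PAX2 stayed at or under 1.13 CPM. Of 6 markers of other cell types, PTPRC of leukocytes had 0 counts in all 6 libraries, and ALB, PECAM1, CDH5 and DES stayed at or under 0.199 CPM. COL1A2 of fibroblasts ranged from 0 to 2.02 CPM and was highest in WT replicate 2, with 2.06 CPM after TMM scaling against 0.0109 and 0.0196 in the other WT libraries and 0 to 0.733 in DR-RD. Its part in the results was not tested.

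One library stood apart, and each result is therefore given with and without it. WT replicate 1 held 174119002 counts, against 42508758 and 94479028 in WT replicates 2 and 3 and 52383206 to 82661137 in the DR-RD libraries. Over 10061 genes at or above 10 CPM, its log2 level differed from the mean of WT replicates 2 and 3 with an SD of 0.556, where the other 5 libraries differed from the rest of their group, WT replicate 1 left aside, with SDs of 0.0700 to 0.0975. In it 124 genes lay more than 1 log2 unit higher and 521 more than 1 lower. The deviation went with gene length: Pearson's r across those genes was −0.50 with log2 length, against −0.10 to 0.10 in the other libraries. The shortest genes, a group of 2013 of up to 2840 bases, had a median of 0.50 log2 units above the DR-RD mean in WT replicate 1, and 0.04 and 0.06 in WT replicates 2 and 3. The 2012 longest genes, from 8983 bases, were at −0.47, −0.01 and −0.01. The part of this length trend in single results was not tested beyond leaving the library out and fitting an offset for length.

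**Figure D1:**
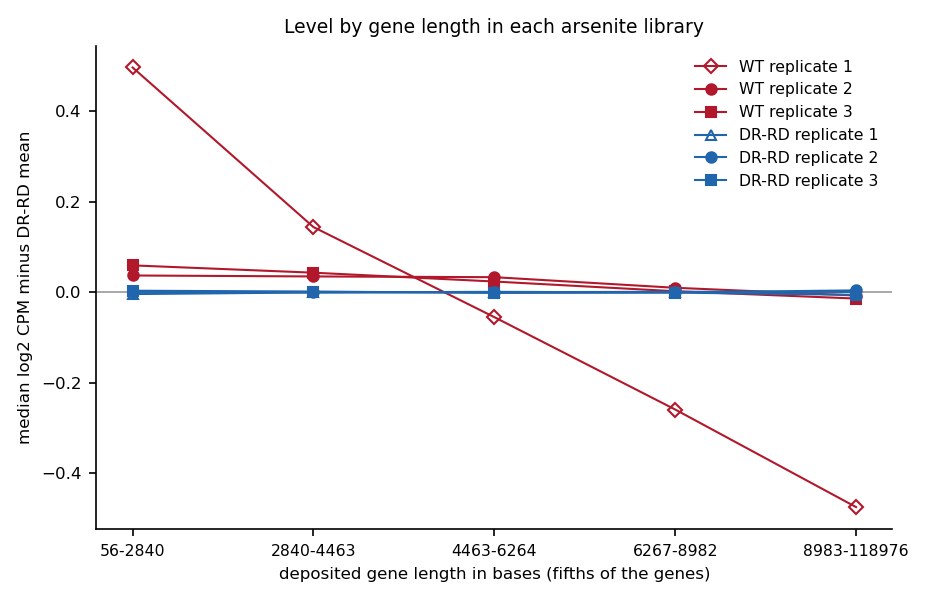
Median log2 level relative to the DR-RD mean (y axis) in 5 groups of about equal size of 10061 genes by the length deposited beside the counts (x axis, bases), 1 line per arsenite library. WT replicate 1 runs from 0.50 in the shortest genes to −0.47 in the longest, and the other 5 libraries stay within 0.06 of 0.

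A second outlying library, WT replicate 2 with hydrogen peroxide, is in neither group but widens the spread that the fit shares over all libraries. Its deviation over the same genes had an r of 0.95 with that of WT replicate 1, a description across genes that share their lengths. Results are therefore given from 3 fits, which differ in the libraries they hold: all libraries, all but WT arsenite replicate 1, and all but both outlying WT libraries. Of 22486 genes tested with all libraries, 232 (1.03%) were higher in WT than in DR-RD with arsenite and 186 (0.827%) were lower at an adjusted p under 0.05. Without WT replicate 1, 57 (0.253%) were higher and 45 (0.2%) lower. Without both outlying libraries, 451 (2.01%) were higher and 382 (1.7%) lower, and the biological coefficient of variation was 5.67% instead of 12.4%. The counts moved with other libraries as well: 1459 higher and 787 lower genes were called without WT replicate 2, 1211 and 837 without WT replicate 3, and 33 to 38 and 34 to 40 when a DR-RD library was left out, while the fit of the 6 libraries alone called 0 genes in edgeR's test (1334 unadjusted p-values under 0.05).

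The differences were small. Of the 418 genes called with all libraries, 21 differed by at least 1 log2 unit, and of the 833 called without both outlying libraries 17 did. Called both with and without WT replicate 1 were 77 genes, and all 77 moved the same way in both fits, 38 higher and 39 lower in WT. These 77 were also all among the 833. The fits share most of their libraries, so nothing is read from this agreement. The absolute log2 fold changes of the 77 without WT replicate 1 ran from 0.19 to 3.44 with a median of 0.36, and 64 were under 0.5. In 75 of the 77 the 3 WT values did not overlap the 3 DR-RD values, as in 5249 (23.3%) of all genes tested. The 77 were chosen on these same values, so nothing is read from that count. Exons of 42 overlapped those of another gene, as did 12801 of the tested genes, and the use of strand in the counting is not given in the sources used here. The 42 include RRP12, NOP14, TSR1, ASNS, SLC6A9, DNAJB1 and NFE2L2, which are described below.

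Some genes for making ribosomes were higher in WT than in DR-RD, and none on the list was called lower. Of 29 nucleolar ribosome biogenesis factors, 4 were called higher and 0 lower with all libraries, again 4 and 0 without WT replicate 1, and 14 and 0 without both outlying libraries. Over all genes tested the shares called higher in these fits were 1.03%, 0.253% and 2.01%. The median log2 fold change of the 29 was 0.17, 0.18 and 0.18 in the 3 fits, beside −0.02, −0.00031 and −0.01 over all genes tested.

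RRP12, which acts in maturation and export of ribosomal subunits (chromosome 10, 97356358 to 97426076, minus strand), had 134.3, 109.4 and 117.6 CPM in the WT libraries and 84.5, 88.7 and 83.3 in the DR-RD libraries. Every WT value lay above every DR-RD value. Its log2 fold change was 0.49 ± 0.08 (SE; adjusted p = 0.00133) with all libraries and 0.41 ± 0.08 (adjusted p = 0.0116) without WT replicate 1. RRP9, a protein of the U3 small nucleolar particle, had 125.2, 101.3 and 98.7 CPM in WT and 69.2, 75.2 and 72.4 in DR-RD. Its groups did not overlap either, but its call rested on the libraries used: the log2 fold change was 0.59 (adjusted p = 0.0161) with all, 0.47 (adjusted p = 0.120) without WT replicate 1 and 0.46 (adjusted p = 2.17e-05) without both outlying libraries.

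Of 2 further genes that the list does not hold, DHX37, an RNA helicase of the small subunit processome (chromosome 12, 124946825 to 124989131, minus strand), had 76.2, 90.2 and 87.5 CPM in WT and 62.2, 68.2 and 65.9 in DR-RD. For NOL6, of the same complex, the values were 66.0, 81.2 and 83.2 in WT and 64.1, 65.8 and 61.6 in DR-RD. In both genes all WT values were the higher ones, NOL6 by a margin of under 1 CPM in WT replicate 1. DHX37 differed by 0.37 ± 0.06 (adjusted p = 0.00133) with all libraries and 0.44 ± 0.06 (adjusted p = 0.000261) without WT replicate 1, and NOL6 by 0.27 ± 0.06 (adjusted p = 0.0279) and 0.36 ± 0.05 (adjusted p = 0.000652). Back on the list, NOP14, another small subunit factor, had 361.6, 390.8 and 394.0 CPM in WT against 336.3, 333.3 and 330.5 in DR-RD, a difference of 0.20 with all libraries and 0.24 without WT replicate 1. The antisense gene NOP14-AS1, whose exons overlap those of NOP14, was called as well at 0.23, and reads of the pair may not have been told apart. TSR1, which matures the small subunit, differed by 0.16 and 0.19. NIP7 was called only once WT replicate 1 was left out, since that library had 77.7 CPM where the other WT libraries had 93.6 and 92.2 and the DR-RD libraries 79.6 to 81.5.

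More genes of the same kind among the 77 were not on the list either, and all but NOPCHAP1 were chosen after their values were seen. They were the helicase DDX18 with 0.26, the nucleolar protein PWP1 with 0.25, RBM19 with 0.30, PNO1 with 0.21, the large subunit GTPase LSG1 with 0.24 and NOPCHAP1, a chaperone of nucleolar particle assembly, with 0.39 without WT replicate 1. The cytosolic ribosomal protein genes gave another picture for the level with arsenite. None of 74 was called in any of the 3 fits, and their median of 0.31 with all libraries became 0.01 without WT replicate 1, a library in which they lay at a median of 0.77 above the other WT libraries.

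**Figure D2:**
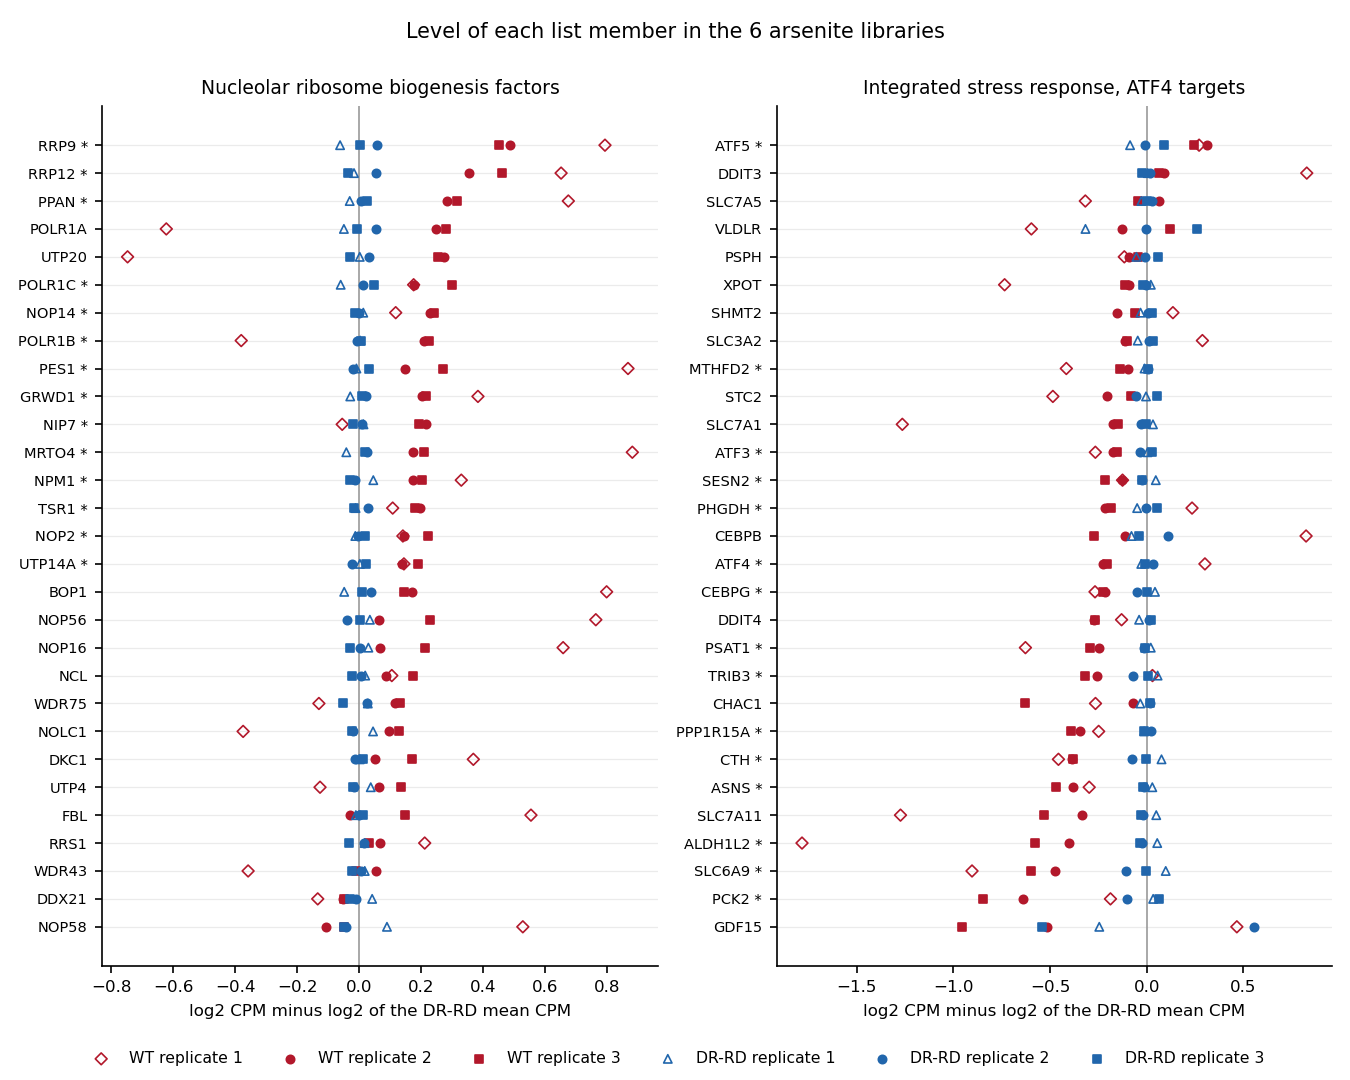
Log2 CPM of each tested member of both lists minus the log2 of its mean CPM in DR-RD (x axis), with genes in rows ordered by fold change, red for WT and blue for DR-RD libraries with arsenite, and an asterisk at genes called without both outlying libraries. In the left panel 14 of 29 genes carry an asterisk and all 14 lie to the right, in the right panel 15 of 29 and 14 of these to the left, and the open diamonds of WT replicate 1 scatter to both sides.

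Some targets of ATF4 were lower in WT than in DR-RD. Of 29 genes of the integrated stress response, 0 were called higher and 7 lower with all libraries, 0 and 6 without WT replicate 1, and 1 and 14 without both outlying libraries. The shares of all genes called lower were 0.827%, 0.2% and 1.7%. The median log2 fold change of the list was −0.21, −0.21 and −0.22, and WT replicate 1 lay at a median of −0.01 from the other WT libraries over this list. Single members lay far to both sides of that median, such as SLC7A1 at −1.10 and DDIT3 at 0.75.

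ASNS, asparagine synthetase (chromosome 7, 97851677 to 97872542, minus strand), had 265.3, 249.9 and 235.8 CPM in WT and 332.7, 323.2 and 322.1 in DR-RD. The groups were far apart relative to their spread, and the log2 fold change was −0.38 ± 0.05 (adjusted p = 0.000737) with all libraries and −0.42 ± 0.06 (adjusted p = 0.000387) without WT replicate 1. A gene whose exons overlap those of ASNS, ENSG00000284707, gave −0.38 and −0.42 and may count the same reads. CTH, which makes cysteine from cystathionine, had 116.7, 122.7 and 122.9 CPM in WT and 168.9, 151.8 and 159.7 in DR-RD, a log2 fold change of −0.41 and −0.38. PSAT1, of serine synthesis, had 295.2, 383.8 and 372.4 against 462.8, 451.6 and 453.6, and −0.38 and −0.27. WT replicate 1 was the lowest library for PSAT1 and CTH, yet the other WT libraries also stayed under every DR-RD library.

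PCK2, the mitochondrial phosphoenolpyruvate carboxykinase, had 17.9, 13.1 and 11.4 CPM in WT and 20.9, 19.0 and 21.3 in DR-RD. Here WT replicate 1 was the nearest to DR-RD, and the fold change was −0.53 with all libraries and −0.74 ± 0.12 without it. PPP1R15A, the regulatory subunit that brings phosphatase to eIF2α, had a mean of 153.5 CPM in WT, with 151.7 and 146.9 in WT replicates 2 and 3, against 190.7, 195.7 and 190.9, with −0.33 and −0.37. SLC6A9, a glycine transporter, had 5.17, 6.97 and 6.38 against 10.4, 8.995 and 9.67, with −0.66 and −0.54. CEBPG, a partner of ATF4 in binding DNA, had 96.6, 100.2 and 99.5 against 119.8, 112.5 and 116.5. It was called with all libraries (adjusted p = 0.0142) and not without WT replicate 1 (adjusted p = 0.0559). All of these genes kept the WT values under the DR-RD values in all 6 libraries.

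ATF4 mRNA was less clear. It had 928.2, 644.1 and 654.0 CPM in WT and 738.7, 770.8 and 749.7 in DR-RD, so WT replicate 1 lay above all DR-RD libraries and the other WT libraries below. The log2 fold change was −0.02 with all libraries and −0.21 ± 0.12 without WT replicate 1 (adjusted p = 0.615). Of the 3 fits it passed the test in the one without both outlying libraries, at −0.22 ± 0.05 (adjusted p = 0.00976), and it also passed in 2 of the alternatives in which WT replicate 1 was left out or down-weighted. DDIT3, which encodes CHOP, was not called in any of the 3 fits and had 67.2, 40.3 and 39.5 CPM in WT and 38.0, 38.2 and 37.3 in DR-RD. ATF5 was the gene called higher in WT, at 0.27 (adjusted p = 0.0253), and only without both outlying libraries.

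Promoter sequence is shown for a few members because both groups have a known DNA element. The C/EBP-ATF response element bound by ATF4 was searched as TGATGNAA, and the E-box bound by MYC and related factors as CACGTG, on both strands of the RefSeq promoter windows from 250 bases before to 50 after each gene's start (GRCh38.p14). These motifs were chosen after the values were seen, and a match is a description of the letters only. TGATGNAA was found in 3.62% of 35116 promoters, and in 6 of 37 entries of the stress response list (16.2%). CACGTG was found in 7.26% of all promoters and in 11 of 28 entries of the ribosome biogenesis list (39.3%). Among entries of genes called without both outlying libraries, TGATGNAA was in 3 of 22 and CACGTG in 6 of 16. Each window is printed in the direction of the gene, with the motif in capitals.
ASNS, chr7:97872449-97872496, minus strand: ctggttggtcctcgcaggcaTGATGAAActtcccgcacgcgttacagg
CEBPG, chr19:33374051-33374098, plus strand: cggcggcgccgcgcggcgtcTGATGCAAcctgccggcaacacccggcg
ATF3, chr1:212565196-212565243, plus strand: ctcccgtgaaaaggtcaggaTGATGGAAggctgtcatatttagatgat
UTP14A, chrX:129905914-129905948, plus strand: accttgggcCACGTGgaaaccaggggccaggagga
RRP9, chr3:51941884-51941929, minus strand: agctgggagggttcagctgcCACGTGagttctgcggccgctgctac

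ASNS and CEBPG belong to the genes lower in WT described above, and ATF3, a stress-induced transcription factor, had 387.6, 413.5 and 418.6 CPM in WT and 467.4, 455.1 and 475.2 in DR-RD and was called without both outlying libraries only (−0.17, adjusted p = 0.0254). UTP14A, of the small subunit processome, had 181.3, 180.6 and 187.1 against 164.3, 161.6 and 166.4 and was likewise called in that fit alone (0.16, adjusted p = 0.0195). Neither gene's groups overlapped.

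Some chaperone genes of the heat shock response were lower in WT. Of 27 tested, 3 were called lower with all libraries, 2 without WT replicate 1 and 8 without both outlying libraries, and 0 were called higher in any of these fits, beside 0.827%, 0.2% and 1.7% of all genes called lower. BAG3, a co-chaperone of HSP70, had 813.1, 842.3 and 808.5 CPM in WT and 1021, 988.1 and 962.4 in DR-RD, with log2 fold changes of −0.27 and −0.26 with and without WT replicate 1. DNAJB1, of the HSP40 family, had 4209, 3719 and 3683 CPM against 4765, 4449 and 4445, with −0.23 and −0.30. Both genes had all WT libraries below all DR-RD libraries. HSPH1, of the HSP110 family, passed with all libraries at −0.33 and had an adjusted p of 0.0999 without WT replicate 1. The list's median was −0.09, −0.13 and −0.13.

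NFE2L2, which encodes the oxidant-sensing factor NRF2 (chromosome 2, 177218667 to 177392756, minus strand), was among the clearest differences. It had 105.2, 124.3 and 115.2 CPM in WT and 159.2, 156.0 and 150.9 in DR-RD. The log2 fold change was −0.44 ± 0.06 (adjusted p = 0.000188) with all libraries and −0.38 ± 0.06 (adjusted p = 0.00078) without WT replicate 1, and its exons overlap those of an antisense gene. Of all genes tested, 1.03% were called higher and 0.827% lower with all libraries. The shares were 0.253% and 0.2% without WT replicate 1, and 2.01% and 1.7% without both outlying libraries. Of 27 genes on the NRF2 list, which holds NFE2L2 itself, 1 was higher and 1 lower with all libraries, 0 and 1 without WT replicate 1, and 1 and 2 without both outlying libraries. SRXN1, the sulfiredoxin that repairs peroxiredoxins, was the higher one, with 18.04, 18.8 and 18.8 CPM in WT against 16.1, 15.4 and 15.7 in DR-RD. It was not called without WT replicate 1 (0.26, adjusted p = 0.0655), and its exons overlap those of another gene. HMOX1, heme oxygenase 1, had 177.4, 134.9 and 137.1 CPM in WT and 181.4, 171.7 and 172.2 in DR-RD and was called without both outlying libraries (−0.37, adjusted p = 1.61e-05).

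Immediate early genes had a median of −0.14, −0.18 and −0.19 over 34 tested. FOSB, an AP-1 subunit, had 26.8, 35.0 and 36.9 CPM in WT and 44.5, 47.2 and 47.8 in DR-RD, and ZFP36, a factor of mRNA decay, had 6.36, 9.17 and 7.17 against 10.3, 12.6 and 9.81. Their groups did not overlap. Both were called with all libraries, at −0.50 and −0.54, and neither without WT replicate 1 (adjusted p = 0.138 and 0.203). Of the 34, 4 were called lower without both outlying libraries, beside 1.7% of all genes.

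PSMD1, PSMD4 and PSMD14, the regulatory particle subunits that TXNL1 touches, were not called in any of the 3 fits. PSMD1, a structural subunit, had 0.02 with all libraries and −0.04 without WT replicate 1, PSMD4, a ubiquitin receptor, 0.34 and 0.08, and PSMD14, a deubiquitinase, 0.16 and 0.07. PITHD1, a protein with a PITH domain like that of TXNL1, also did not pass. Over 33 subunits of the 26S proteasome, 1 was called with all libraries, PSMD6 at 0.24, and 0 without WT replicate 1 by edgeR's test, where the tested genes had 2099 unadjusted p-values under 0.05. The median went from 0.27 to 0.10, with WT replicate 1 at 0.53 above the other WT libraries. Without both outlying libraries PSMD6 was again the call. Of all genes, 1.03% were called higher with all libraries, 0.253% without WT replicate 1 and 2.01% without both outlying libraries.

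Thioredoxin and glutaredoxin genes other than TXNL1 gave 3 calls higher in WT of 32 with all libraries, SRXN1, TXNDC9 and GLRX3, 0 without WT replicate 1 and 4 without both outlying libraries. The shares of all genes called higher in these fits were 1.03%, 0.253% and 2.01%. GLRX3, a glutaredoxin of iron handling, had 204.7, 162.3 and 162.3 CPM in WT and 142.7, 141.1 and 137.8 in DR-RD. The list's median of 0.19 became 0.08 without WT replicate 1. The respiratory chain genes behaved alike, with 51 tested, 1 called (NDUFA4) with all libraries and 0 without WT replicate 1, and a median that went from 0.32 to 0.08. Proteasome assembly factors and shuttles had 1 call with all libraries, PSMG1 at 0.38, and autophagy and ubiquitin genes 1, MAP1LC3B at −0.17, both lost without WT replicate 1. PDIA6 of the unfolded protein response (0.16), CCNB1 of the mitosis genes (0.19) and SRSF3 of the splicing factors (0.28) were the only members of their lists called with all libraries, and none of the 3 was called without that library.

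In the fit without both outlying libraries the calls included, among the assembly factors, PSMG1 and PSME3 higher and AKIRIN2 lower. The autophagy genes OPTN and MAP1LC3B were lower, as were XBP1 and HERPUD1 of the unfolded protein response, whose chaperones PDIA4, PDIA6 and HYOU1 were higher. The mitosis genes CCNB1, CDC20 and KIF23 were higher and the splicing factor TRA2B lower.

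No member was called, with or without WT replicate 1, among the metallothioneins and zinc transporters, p53 targets, replication genes, histone genes, mitochondrial transcripts, cholesterol genes, nuclear noncoding RNAs, structured noncoding RNAs, HEK293T markers or markers of other cell types. Once both outlying libraries were left out, the calls among them included DDB2 of the p53 targets (−0.31), the ribonucleotide reductase subunit RRM2 of the replication genes (0.14), SREBF2 of the cholesterol genes (−0.14), and the HEK293T marker INA (0.28). The metallothionein MT2A shows the width of some of these groups: it had 389.8, 162.5 and 195.5 CPM in WT and 227.1, 170.8 and 208.0 in DR-RD, and the groups overlapped. The mitochondrial transcripts had a median of −0.21 and −0.16 with and without WT replicate 1, with MT-CO1 at 1129, 1248 and 1178 CPM in WT and 1458, 1265 and 1336 in DR-RD.

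**Figure D3:**
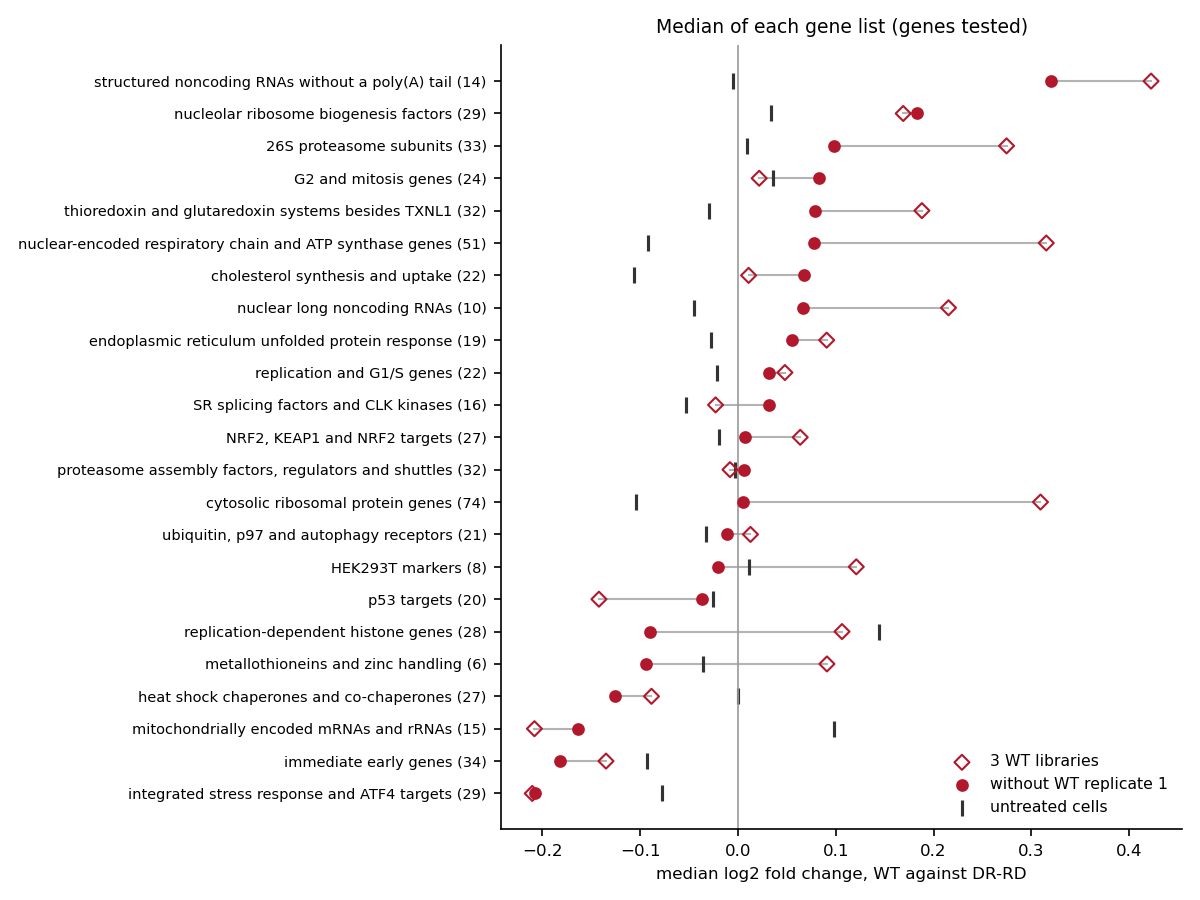
Median log2 fold change of WT against DR-RD (x axis) for the 23 lists with at least 5 tested genes, with arsenite over all 3 WT libraries (open diamonds), with arsenite without WT replicate 1 (filled circles) and in untreated cells (vertical ticks). The ribosome biogenesis list stays at 0.17 and 0.18 and the integrated stress response list at −0.21 in both fits, while the ribosomal protein list moves from 0.31 to 0.01.

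Outside the lists, ANKRD1, a muscle and YAP-responsive ankyrin-repeat gene, had 4.86, 3.69 and 3.28 CPM in WT and 1.41, 1.41 and 1.73 in DR-RD. It was higher in every WT library, by 1.38 ± 0.20 (adjusted p = 0.000737) with all libraries and 1.19 ± 0.21 (adjusted p = 0.00556) without WT replicate 1. In untreated cells it was higher in WT as well, 1.68 ± 0.45 CPM (SD, n = 3) against 0.762 ± 0.168. The processed pseudogene RPS26P6 had the largest fold change of the 77, 3.44, and the value rested on a single library, WT replicate 2 with 5.61 CPM, where the other 5 libraries had 0.207 to 0.739. Reads of this copy may also come from its parent gene. NPM1P6, a pseudogene of NPM1, reached 0.79, and NOXO1, an organizer of NADPH oxidase, 0.48 without WT replicate 1.

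Among the genes lower in WT, ULBP1, a stress ligand of the natural killer receptor NKG2D, had 3.99, 5.29 and 3.98 CPM in WT and 7.83, 6.59 and 7.90 in DR-RD, a log2 fold change of −0.76 and −0.70 with and without WT replicate 1. ZBTB20, a transcriptional repressor, had 0.785, 1.03 and 1.08 CPM against 2.12, 1.70 and 1.95, with −1.01 and −0.86. KLHL41 followed at −0.64 and −0.77 and CD24, a surface glycoprotein, at −0.61 and −0.70. All 4 kept the groups apart, while the deubiquitinase gene USP27X (−0.49 and −0.64) had WT replicate 1 at 2.98 CPM, above DR-RD replicate 2 at 2.93. CDK18 (−0.44 and −0.48) and BASP1 (−0.50 and −0.60) were further members. VEGFA, the vascular growth factor, was also among the 77, with a mean of 96.2 CPM in WT and 136 in DR-RD and −0.50 and −0.40. It was noticed after its values were seen.

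The 77 genes were also compared in the same lines without arsenite. With all libraries 8 genes (0.0356%) were called between WT and DR-RD in untreated cells, 2 of them among the 77. Without both outlying libraries 861 (3.83%) were called, about as many as the 833 with arsenite, 10 of them among the 77. In that last fit the 38 genes higher in WT with arsenite had a median log2 fold change of 0.25 with arsenite and 0.05 untreated, and the 39 lower genes −0.42 and −0.11. The choice of genes fixes the direction of the arsenite medians and inflates their size, so nothing is read from their being larger than the untreated ones.

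Whether the arsenite response itself differed was tested as the interaction of line and treatment. No gene passed with all libraries, where edgeR's test gave 3603 unadjusted p-values under 0.05 and a smallest adjusted p of 0.134, while DESeq2 called 169 and limma with library quality weights 930. Without WT replicate 1, 4 genes (0.0178%) passed, and without both outlying libraries 313 (1.39%), with 28 of the 77 among these. The 4 were MAT2A, LRIF1, DHX37 and RSRC2. DHX37 fell with arsenite by 0.25 on the log2 scale in the WT line and by 0.72 in the DR-RD line without both outlying libraries, a difference of 0.47 (adjusted p = 0.000122), and without WT replicate 1 the adjusted p was 0.00559. LRIF1, a nuclear receptor-interacting factor, had 71.9, 58.2 and 60.1 CPM in WT and 82.7, 78.0 and 78.1 in DR-RD with arsenite and responded by 0.83 and 1.44.

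MAT2A, the methionine adenosyltransferase that makes S-adenosylmethionine, had the smallest p for the interaction without WT replicate 1 and was called between the lines with arsenite only without both outlying libraries, at 0.19 (adjusted p = 0.0246). It had 73.8, 99.5 and 102.5 CPM in WT and 90.5, 85.5 and 88.7 in DR-RD with arsenite, and 336.0 ± 6.0 and 443.8 ± 1.73 CPM (SD, n = 3) untreated. Its response was −1.76 in WT and −2.35 in DR-RD, so the lines differed before arsenite more than after it. RSRC2 had 672.0 and 671.4 CPM in WT replicates 2 and 3 and 794.4 to 867.6 in DR-RD, with WT replicate 1 at 809.5 in between, and responded by 2.93 and 3.42. NOL6 came next, with an adjusted p of 0.131 without WT replicate 1 and 0.00179 without both outlying libraries.

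ASNS, by contrast, differed by as much before arsenite as with it. It had 140.0 ± 8.75 CPM (SD, n = 3) in untreated WT cells and 192.0 ± 4.83 in untreated DR-RD cells, a log2 fold change of −0.45 (adjusted p = 2.01e-09, without both outlying libraries), and its response was 0.77 and 0.75. The interaction for ASNS was 0.02 (adjusted p = 0.913). CTH had a response of 2.73 in WT and 3.05 in DR-RD, with an untreated difference of −0.07, and NFE2L2 1.22 and 1.58, with −0.02. PPP1R15A had an untreated difference of 0.04 and an interaction of −0.41 (adjusted p = 0.00769). Within the stress response list some members carried their difference from the untreated state and others showed it with arsenite. In untreated cells without both outlying libraries, 7 of its 29 genes were called lower in WT and 0 higher. Of 29 ribosome biogenesis genes, 5 were called higher there and 0 lower. Over all genes tested untreated, 2.78% were called lower and 1.05% higher. Without both outlying libraries the interaction was called in 8 ribosome biogenesis genes, all higher, and in 4 stress response genes, 1 higher (ATF5) and 3 lower. Over all genes tested it was called higher in 0.912% and lower in 0.48%. In the same fit the interaction was above 0 in 24 of 29 ribosome biogenesis genes, with a median of 0.11. It was above 0 in 71 of 74 ribosomal protein genes (median 0.12, 0 called). The 51 respiratory chain genes had 48 above 0 (median 0.17, 3 called higher). The lean above 0 was thus not particular to ribosome biogenesis.

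**Figure D4:**
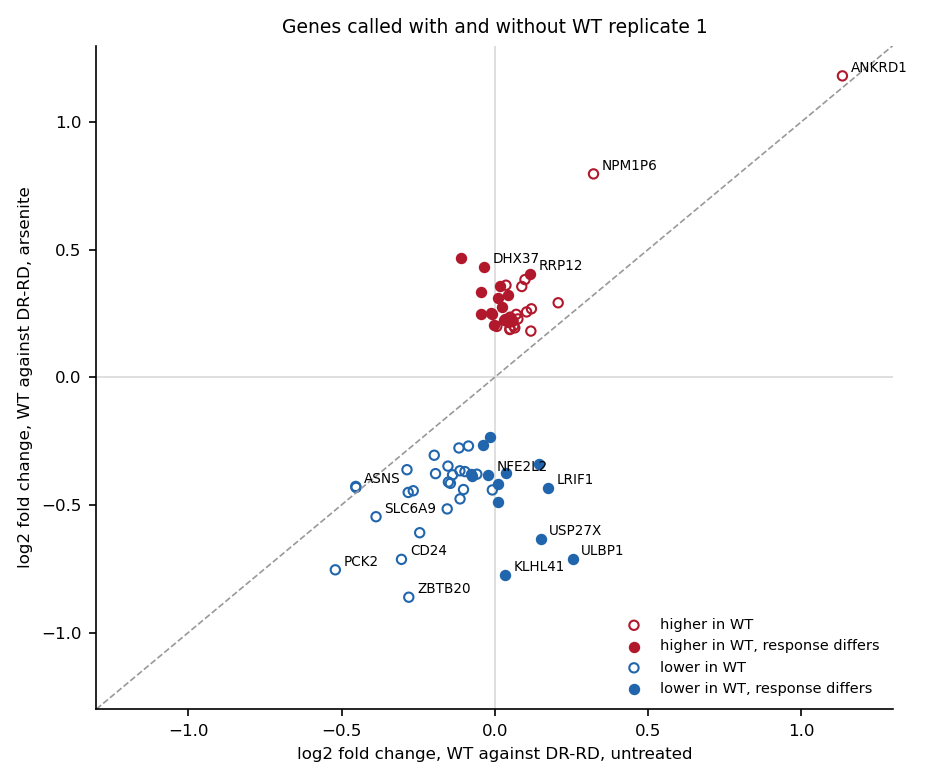
Log2 fold change of WT against DR-RD in untreated cells (x axis) and with arsenite (y axis), without both outlying libraries, for the genes called with and without WT replicate 1. Filled points are the 28 genes whose arsenite response differed, the dashed line marks equal differences, ASNS and ANKRD1 lie near it and DHX37 and LRIF1 away from it, and RPS26P6 and ENSG00000267397 lie outside the axes.

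For most of the called genes the sign of the line difference was opposite to the direction in which arsenite moved the gene in other lines. The vector line and the SxxS line, which carries a TXNL1 with a changed thioredoxin active site, are in neither group, so their response uses no library of the comparison. In the study, SxxS TXNL1 still bound proteasomes and was not destabilized by arsenite. DR-RD is thus not the only line here with a stable TXNL1. Of the 38 genes higher in WT, 35 (92.1%) had a lower mean log2 level with arsenite than untreated in the vector line, where 47.1% of all genes tested did, and the median response was −0.30. Of the 39 lower genes, 34 (87.2%) had a higher level with arsenite, beside 52.9% of all genes, with a median of 0.78. In the SxxS line the counts were 34 of 38 and 32 of 39. The 833 genes called without both outlying libraries behaved alike, with 383 of 451 higher genes below their untreated level in the vector line (84.9%) and 317 of 382 lower genes above it (83.0%). The ribosome biogenesis list as a whole showed less of this, with 19 of its 29 genes below the untreated level in the vector line (median −0.06) and 14 of 29 in the SxxS line (median 0.02). The integrated stress response list had 23 of 29 above it in both lines, with medians of 0.60 and 0.65. This is a description, chosen after the values were seen, and no test was made on it.

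**Figure D5:**
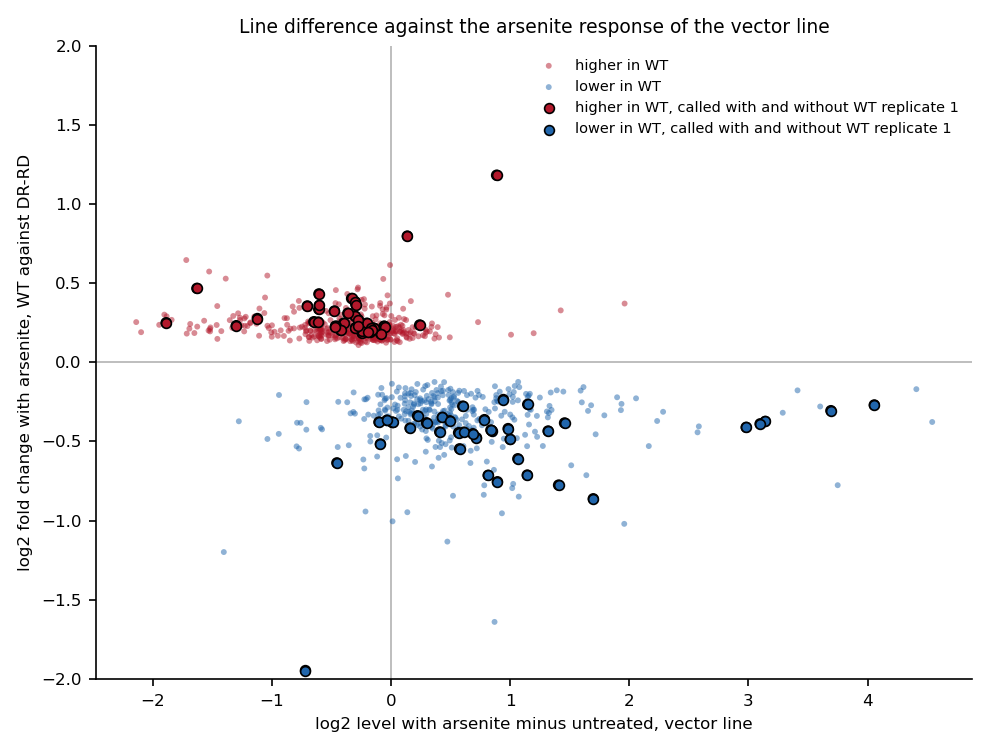
Mean log2 level with arsenite minus untreated in the vector line (x axis) against the log2 fold change of WT against DR-RD with arsenite (y axis) for the 833 genes called without both outlying libraries, with the 77 genes called both with and without WT replicate 1 outlined in black. Most red points (higher in WT) lie left of 0 and most blue points (lower in WT) right of it, and the 10 genes beyond 2 log2 units on the y axis are not drawn.

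The size of the response over all genes differed little once WT replicate 1 was set aside. Along the response of the vector line over 10255 genes at or above 10 CPM there, where a slope of 1 is an equal response, WT replicates 2 and 3 had slopes of 0.958 and 0.970 and the DR-RD replicates 1.005, 0.995 and 1.002. The SxxS replicates had 0.978, 1.009 and 0.977, and WT replicate 1 stood at 1.167. WT replicates 2 and 3 lay below the DR-RD slopes and WT replicate 1 above them, and the SxxS slopes lay on both sides of the DR-RD range.

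Levels in the other lines were set beside those of WT and DR-RD. DHX37 had 67.6 ± 3.56 CPM (SD, n = 3) with arsenite in the vector line and 74.8 ± 1.19 in the SxxS line, beside 62.2 to 68.2 in DR-RD and 76.2 to 90.2 in WT. RRP12 had 90.9 ± 4.02 and 101.9 ± 0.65. CTH had 148.2 ± 4.28 in the vector line and 150.8 ± 3.98 in the SxxS line, between WT and DR-RD but nearer to DR-RD, and NFE2L2 had 140.1 ± 5.88 and 128.8 ± 2.44. With arsenite, WT differed from the vector line in 299 genes (1.33%) with all libraries, 93 (0.414%) without WT replicate 1 and 665 (2.96%) without both outlying libraries, and DR-RD differed from it in 5 (0.0222%) with all libraries and 22 (0.0978%) without both. Against the SxxS line edgeR's test called 0 genes for WT and 0 for DR-RD with all libraries (3501 and 964 unadjusted p-values under 0.05), again 0 and 0 without WT replicate 1 (1184 and 1255), and 40 (0.178%) for WT and 98 (0.436%) for DR-RD without both outlying libraries. WT had more calls than DR-RD against the vector line with all libraries and without both outlying libraries. Against the SxxS line WT had fewer, but only without both outlying libraries, a fit with fewer WT than DR-RD arsenite libraries. These comparisons share the vector, SxxS, WT and DR-RD libraries with each other and with the main comparison, and their difference was not tested.

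Some calls depended on WT replicate 1. With all libraries, 341 genes were called that were not called without it. BOLA2B had 17.4 CPM in WT replicate 1 and 0.791 to 1.37 in the other 5 libraries, and its log2 fold change of 2.67 became −0.13 without that library. PTMAP5, a pseudogene of prothymosin alpha, had 95.3 CPM there against 26.4 to 42.2 in the other 5. SPSB2 had 13.2 and 9.53 CPM in WT replicates 1 and 3 but 2.90 in WT replicate 2, and 2.94 to 3.13 in DR-RD. RSPH10B2 was called lower at −4.36 because DR-RD replicate 1 alone had 7.64 CPM, with the other 5 at 0.0719 to 0.157, and without that library the value was 0.29. Others were steadier between groups: RIMS2, of the presynaptic active zone, had 1.16, 1.49 and 1.25 CPM in WT and 2.33, 2.38 and 3.05 in DR-RD, with −1.02 and −0.94.

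Another 25 genes were called only without WT replicate 1. MYBBP1A, a nucleolar protein that binds MYB, had 302.1 and 295.2 CPM in WT replicates 2 and 3, 243.2 in WT replicate 1 and 235.5 to 248.3 in DR-RD, and its fold change went from 0.21 to 0.31 (adjusted p = 0.00488). MAT2B, the regulatory subunit of methionine adenosyltransferase, had 47.6 and 51.9 CPM, 37.9 in WT replicate 1 and 38.8 to 40.0 in DR-RD. ACBD4 and METTL7A were lower in WT replicates 2 and 3, at 4.60 and 4.64 CPM and at 10.7 and 13.1, than in WT replicate 1 with 7.89 and 18.4, and DR-RD had 7.36 to 7.78 and 15.3 to 17.2. WT replicate 1 lay inside the DR-RD range for MYBBP1A and beyond it, away from WT replicates 2 and 3, for the other genes.

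The genes furthest from the other WT libraries in WT replicate 1 were, above, HMGN5 with 92.2 CPM against 30.9 and 35.4, CCDC85B with 27.6 against 10.3 and 9.44, the pseudogene EEF1A1P13 and ENSG00000284526 and ENSG00000286223. Below lay ZKSCAN8 with 10.0 CPM against 39.8 and 39.0, ENSG00000288841 with 3.12 against 18.3 and 18.03, ENSG00000289282, ENSG00000273217 and the pseudogene DHFRP1, which varied from 6.81 to 32.0 among the DR-RD libraries as well. None of these 10 was called between the lines in any of the 3 fits.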

How the data were processed

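Messenger RNA libraries, 36 in 12 groups of 3, were made from total RNA in the study and sequenced with paired reads of 100 bp. Per the study's methods, the authors aligned the reads to GRCh38 with qAlign of QuasR, and the submitters' processing notes name DESeq2. The deposited values used here are raw counts per gene, with no normalization. The authors also deposited another value for each gene, its length in bases. The version of the aligner, the annotation release, the use of strand and whether 1 or both mates were counted are not given in the sources used here, and 63.29% of counts from 2 to 21 were even.

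Genes with at least 10 counts over the 3 untreated vector libraries were tested, the filter named in the study's methods, which left 22486 of 42726 with any count. Counts were fitted with edgeR 4.0.16 (R 4.3.3) using TMM factors, 1 coefficient for each of the 12 groups and the quasi-likelihood test. P-values were adjusted by Benjamini-Hochberg over all tested genes, and genes were called at an adjusted p under 0.05. DESeq2 1.42.0 and limma 3.58.1 gave alternatives. Only the edgeR fit of all libraries was tested on simulated counts, which held no outlying library and no trend with gene length. Of 61587 gene identifiers, 61369 matched GENCODE 44, which gave coordinates. No replicate pair of these groups agreed within sampling noise.

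The members, the 24 gene lists and the tests were chosen with earlier results of these data known. Named by rule were TXNL1, PSMD1, PSMD4, PSMD14, PITHD1 and ATF4. In each list up to 4 called members with the smallest p were named, or the 2 highest where none was called. The 10 largest changes in each direction among genes called both with and without WT replicate 1, at 1 CPM or more, followed. The rule then took the 5 largest in each direction among genes called only with or only without it, the 5 smallest interaction p-values, and the 5 genes furthest above and below in that library. Any other gene named was chosen after its values were seen. A few genes that the rule or the lists hold are not reported here.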

Additional observations from a re-analysis of the deposited data

How the results depend on the processing

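The counts of called genes depended strongly on the settings. Genes higher in WT with arsenite (232) numbered 33 to 1459 and genes lower in WT (186) 34 to 837 when 1 arsenite library was left out, the lowest without a DR-RD library and the highest without WT replicate 2 or 3. Without WT replicate 1 they were 57 and 45, without both outlying WT libraries 451 and 382, and without WT peroxide replicate 2 alone 2053 and 1243. DESeq2 gave 994 and 558, limma with library quality weights 1224 and 955, and no filter 15 and 23. The fit of only the groups compared gave 0 and 0 (1334 unadjusted p-values under 0.05), and 1101 and 1000 minus the outlying WT arsenite library. Total counts without TMM factors gave 303 lower genes and 163 higher. Chosen after seeing the data, an offset for a trend with gene length gave 611 and 253, and 116 and 58 minus the outlying library.

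The arsenite response differed in 0 genes with all libraries and in 0 to 63 when 1 library was left out, 63 without WT arsenite replicate 3 and 4 without WT arsenite replicate 1. It differed in 313 without both outlying libraries, 988 without WT peroxide replicate 2, 169 with DESeq2, 930 with limma, 5 with only the groups compared minus the outlying library, 2 with the length offset and 8 with the offset minus the outlying library. Untreated, 8 genes became 3 to 31 when 1 untreated library was left out, 31 without DR-RD replicate 1, 861 without both outlying libraries, 55 without WT peroxide replicate 2, 19 with total counts, 77 with DESeq2, 1119 with limma, 5 with no filter and 17 with the length offset.

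With the replicate block, 169 higher and 171 lower genes were called, and 44 and 37 minus the outlying library, with 0 and 4 genes for the response. The same-numbered libraries did not deviate together (r of −0.09, 0.01 and −0.06). With so few libraries in a group and WT replicate 1 far from the rest, this cannot show whether same-numbered samples share more than a number. The cause of these changes was not tested.

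TXNL1 passed in the fit of only the groups compared minus the outlying library (−0.12, adjusted p = 0.0353) and was 0.12 with the length offset. PSMD1, at 0.02 with all libraries, ran from −0.0387 (without WT replicate 1) to 0.0449 (without WT replicate 2) when 1 library was left out and was −0.001 without DR-RD replicate 3. It was −0.0452 without both outlying libraries, −0.0563 with total counts, −0.0374 with limma, −0.0459 with only the groups compared minus the outlying library, −0.0466 with the replicate block minus it and −0.0017 with the length offset minus it. ATF4, at −0.02, ran from −0.21 (without WT replicate 1) to 0.0712 (without WT replicate 2) and was 0.0624 without WT replicate 3. It passed the test, lower in WT, without both outlying libraries, with limma (−0.21, adjusted p = 0.00162) and with only the groups compared minus the outlying library (−0.22, adjusted p = 2.46e-05). BOLA2B ran from −0.13 (without WT replicate 1) to 3.18 (without WT replicate 3) and was −0.13 without both outlying libraries, −0.14 with only the groups compared minus the outlying library, −0.15 with the replicate block minus it and −0.14 with the length offset minus it. RSPH10B2 ran from −4.94 (without DR-RD replicate 2) to 0.29 (without DR-RD replicate 1). Over 68 named genes and 1354 alternative values, 925 kept direction and side of the threshold, 315 lost the call, 98 gained it and 16 changed sign. The 77 genes called both with and without WT replicate 1 had 0 changes of sign over the 19 other settings. These settings refit mostly the same libraries that chose the 77, so nothing is read from that. Of the 77, 17 were called in every setting but the fit of only the groups compared, which called 0 of them. No filter called 25 of them, and leaving out 1 DR-RD library 44 to 47.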
